A study of Ananas comosus with 9 samples.

Results

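Carbon fixation genes of pineapple (Ananas comosus) fruit peel were followed through fruit maturation. The members were the genes whose KEGG annotation includes the map of carbon fixation in photosynthetic organisms, except the phosphoenolpyruvate carboxylase gene Aco010025, which was left out by rule. They numbered 73 of 26730 genes, lay on 24 contigs and carried 24 KEGG orthologs (KEGG's identifiers of enzyme function). By ortholog, 48 belonged to the Calvin cycle and 25 to malate metabolism and the C4 or crassulacean acid metabolism (CAM) type steps. Peels were sampled at 3 fruit ages, counted in days after flowering (DAF), namely 60, 90 and 120 DAF, with 3 RNA-seq libraries an age and no treatment named in the labels. The labels name no cultivar and give no origin of the replicates, such as individual fruits. A p-value here measures the spread between libraries, and that spread may be technical.

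The Calvin cycle is the plastid pathway that joins carbon dioxide to a sugar phosphate through Rubisco, reduces the product with the help of light-driven electron transport, and rebuilds the acceptor. In C4 and CAM plants, phosphoenolpyruvate carboxylase first fixes carbon into a C4 acid, malate dehydrogenase makes malate, and malic enzyme or phosphoenolpyruvate carboxykinase later releases the carbon dioxide for Rubisco. Pineapple is a CAM plant whose leaves store malate in the vacuole at night. Many of these enzymes also have non-photosynthetic forms that serve glycolysis, respiration and organic acid turnover.

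Only 8 of the 48 Calvin cycle genes carried an ortholog found in no other central pathway. They were 3 genes for the large and 1 for the small subunit of Rubisco, 2 for the plastid NADP+ glyceraldehyde-3-phosphate dehydrogenase (GAPDH), 1 for phosphoribulokinase and 1 for sedoheptulose-bisphosphatase (SBPase). They are called Calvin-only genes here. The other 40 carried orthologs shared with glycolysis or the pentose phosphate pathway, which do not tell a plastid enzyme from a cytosolic one. A plastid term or name stood in the annotation of 5 of the 8 Calvin-only genes and 2 of the 40 shared ones. Of all members, 58 passed the filter of at least 1 FPKM (fragments per kilobase, scaled to library size, so a level per gene length) in at least 3 libraries. Among the 15 that did not pass, no library exceeded 3.70 FPKM, and 4 had no count in any library. All members but 3 are annotated as protein-coding, the exceptions being the phosphoglycerate kinase models Aco002110, Aco007462 and Aco008363. Of the 58 genes tested, 18 passed the test in at least 1 comparison and 40 in none, and of all genes tested 20.1% passed in at least 1. A gene is called changed where the edgeR quasi-likelihood test gave a Benjamini-Hochberg adjusted p under 0.05 over all 16791 genes tested. Numbers of members under an unadjusted p of 0.05 are also given below. The share of all genes under it was not counted, so these numbers do not set the members apart.

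Library totals ran from 35038248 to 52937826 counts. The second library of 90 DAF stood apart in green-tissue genes. The 23 light-harvesting genes, whose proteins hold the antenna chlorophyll, summed to 2744 FPKM there, to 575 and 336 FPKM in the other 90 DAF libraries, to between 114 and 239 FPKM at 60 DAF and to between 27.7 and 49.5 FPKM at 120 DAF. Of the 17 tested light-harvesting genes, 16 were highest in that library, against 24.5% of all genes tested. Cuticle-related genes, listed as markers of the epidermis, numbered 58, of which 23 passed the filter and 15 had no count in any library. Their summed level was 330 to 404 FPKM at 60 DAF, 561 to 584 FPKM at 90 DAF and 143 to 284 FPKM at 120 DAF, with no other tissue to set beside them, so the labelled tissue was not checked by these values.

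The summed levels of the gene groups differed in shape. The 8 Calvin-only genes summed to 69.3, 141 and 90.7 FPKM at 60 DAF, to 108, 879 and 45.2 FPKM at 90 DAF and to 5.51, 5.29 and 4.44 FPKM at 120 DAF. Every 120 DAF library lay below every younger one. The 40 shared genes summed to between 6411 and 7633 FPKM at 60 DAF, 4940 and 6225 FPKM at 90 DAF and 5949 and 6155 FPKM at 120 DAF. The 25 malate and C4/CAM-type genes summed to between 3075 and 3262 FPKM at 60 DAF, 2327 and 2692 FPKM at 90 DAF and 2718 and 2893 FPKM at 120 DAF. Both larger sums were lowest in the third 90 DAF library, while the Calvin-only sum was lowest at 120 DAF. In bulk peel, fewer green cells and less RNA per green cell cannot be told apart.

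**Figure D1:**
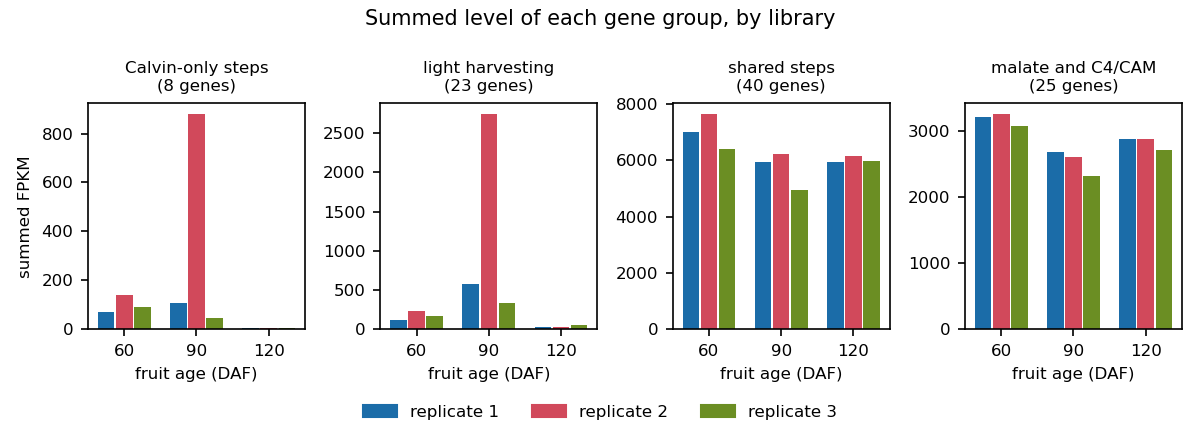
Summed FPKM (vertical axes, different scale in each panel) of the 8 Calvin-only, 23 light-harvesting, 40 shared and 25 malate and C4/CAM-type genes in each library, by fruit age in DAF; each bar is 1 library. The Calvin-only and light-harvesting sums peak in the second 90 DAF library, at 879 and 2744 FPKM, and are lowest at 120 DAF. FPKM carry no correction for library composition.

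Most tested Calvin-only genes fell from 90 to 120 DAF. Of the 5 tested, 4 fell, the exception being the Rubisco large subunit gene Aco018500, and 0 rose, with a median log2 fold change of -5.54. DESeq2, which gave no adjusted p for phosphoribulokinase, called 3 lower, each limma fit called 4 lower, and both called 0 higher. Of all genes tested, edgeR called 17.4%, 9.17% lower and 8.19% higher, and their median was -0.03. DESeq2 called 2536 of all 16791 genes lower, and the limma fits called 2468 and 2526 with pseudocounts of 1 and 0.1. Of these 5 genes, SBPase, phosphoribulokinase and the GAPDH gene Aco011924 were below 1 FPKM in every 120 DAF library, so they entered the test through the younger libraries.

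SBPase is a Calvin cycle enzyme of the regeneration phase that works at a committed step. Its gene Aco014119 (contig 14, 239024 to 241056) measured 22.5, 59.9 and 37.9 FPKM at 60 DAF, 34.1, 298 and 12.2 FPKM at 90 DAF and 0.495, 0.645 and 0.0553 FPKM at 120 DAF. The 120 DAF libraries, with 26, 39 and 4 counts, lay below all others, and the second 90 DAF library lay far above the rest. Its level fell 225-fold from 90 to 120 DAF (log2 change -7.81 ± 1.44, SE, edgeR adjusted p = 0.0116). Against 60 DAF the log2 fold change was -6.34 ± 1.36 (edgeR adjusted p = 0.0288).

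Phosphoribulokinase makes ribulose bisphosphate, the acceptor of carbon dioxide. Its gene Aco017282 (contig 4, 16329491 to 16332327) measured 9.39, 23.5 and 12.7 FPKM at 60 DAF, 18.3, 254 and 10.2 FPKM at 90 DAF and 0.639, 0.638 and 0.427 FPKM at 120 DAF. Again no 120 DAF library reached any younger one. Its level fell 130-fold from 90 to 120 DAF (log2 change -7.03 ± 1.33, edgeR adjusted p = 0.0124). Against 60 DAF the log2 fold change of -4.44 ± 1.19 missed the threshold (edgeR adjusted p = 0.0539).

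The plastid GAPDH reduces the first product of fixation with NADPH. Its gene Aco016173 (contig 18, 10834970 to 10835455) measured 25.0045, 37.3 and 26.9 FPKM at 60 DAF, 38.0, 218 and 17.5 FPKM at 90 DAF and 1.88, 1.95 and 1.67 FPKM at 120 DAF. The second gene, Aco011924 (contig 4, 13556427 to 13558882), measured 11.1, 18.7 and 11.8 FPKM, then 15.2, 96.2 and 3.80 FPKM, then 0.828, 0.437 and 0.642 FPKM at the same ages. In both, the 120 DAF libraries lay apart from all younger ones. After 90 DAF, Aco016173 fell by 5.28 ± 0.90 on the log2 scale (edgeR adjusted p = 0.00921) and Aco011924 fell by 5.54 ± 1.11 (edgeR adjusted p = 0.0149). Between 60 and 120 DAF, they fell by 3.71 ± 0.85 (edgeR adjusted p = 0.0342) and fell by 4.13 ± 1.04 (edgeR adjusted p = 0.0452).

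The gene models annotated as Rubisco subunits were low at every age. The large subunit, which plants normally encode in the plastid genome, had 3 gene models on numbered contigs. The highest, Aco018500 (contig 13, 9418796 to 9420256), measured 0.701, 0.935 and 1.28 FPKM at 60 DAF, 1.82, 10.6 and 0.807 FPKM at 90 DAF and 1.09, 1.302 and 1.44 FPKM at 120 DAF. Its ages overlapped, and its log2 fold change from 90 to 120 DAF was -1.45 ± 0.80 (edgeR adjusted p = 0.246). Its model lies within that of another gene on the opposite strand, so its counts are uncertain. The single small subunit gene among the members, Aco023000, was not tested and measured at most 2.18 FPKM, again in the second 90 DAF library. Small subunit genes without this annotation were not searched for, so the level of the small subunit in peel cannot be read from this gene. Poly(A) capture is known to recover plastid transcripts poorly, and the level of a plastid-encoded large subunit cannot be read from these values.

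The second 90 DAF library carried much of the 90 DAF level of these genes. All 5 tested Calvin-only genes were highest there, at 7.85 to 17.8 times the mean of the other 90 DAF libraries. Without it, the median log2 fold change from 90 to 120 DAF was -3.59 in place of -5.54. Still 4 of the 5 genes fell, where 1113 of all 16791 genes were called lower. The separate log2 fold changes were -5.52 for SBPase, -4.34 for phosphoribulokinase, -3.59 for Aco016173 and -3.53 for Aco011924. Of the 17 tested light-harvesting genes, 12 fell from 90 to 120 DAF and 5 from 60 to 120 DAF with all libraries, against 9.17% and 5.22% of all genes. Their part in the Calvin-only result was not tested. Between 60 and 90 DAF, with the second 90 DAF library left out, the median log2 fold change was 1.40 for light harvesting, with 3 genes higher. It was -0.12 for the Calvin-only genes, with 0 higher, and 129 of all genes were called higher. The difference between the gene groups was not tested.

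From 60 to 90 DAF no Calvin-only gene passed the edgeR test, where 0.786% of all genes were called. Of the 5, 2 had an unadjusted p under 0.05, and DESeq2 and limma also called 0. The median log2 fold change of 1.57 became -0.12 without the second 90 DAF library, and the log2 fold change turned negative for SBPase (-0.82), phosphoribulokinase (-0.10), Aco016173 (-0.12) and Aco011924 (-0.60).

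From 60 to 120 DAF, 3 of the 5 fell, with a median log2 fold change of -4.13, and 0 rose with edgeR, DESeq2 or limma. Of the 5, 4 had an unadjusted p under 0.05, with no count over all genes to set beside it. Of all genes tested, 9.47% were called in that comparison, 5.22% lower and 4.25% higher. Without the second 90 DAF library, which is in neither group compared, phosphoribulokinase was also called (edgeR adjusted p = 0.00357), making 4. Of all 16791 genes, 1264 were then called lower.

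Leaving out single libraries ended some of these calls without changing a direction. Between 90 and 120 DAF, the calls of SBPase (adjusted p = 0.0502) and phosphoribulokinase (adjusted p = 0.053) ended without the first 120 DAF library, and that of Aco011924 without replicate 1 or 3 of that age (0.0543 to 0.055) or with only the compared ages fitted (0.0513). In the comparison of 120 with 60 DAF, the calls of SBPase (0.0536 to 0.1), Aco016173 (0.0666 to 0.112) and Aco011924 (0.0549 to 0.128) ended without any single 60 or 120 DAF library, and that of Aco011924 also without the first 90 DAF library or with no filter (0.053).

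**Figure D2:**
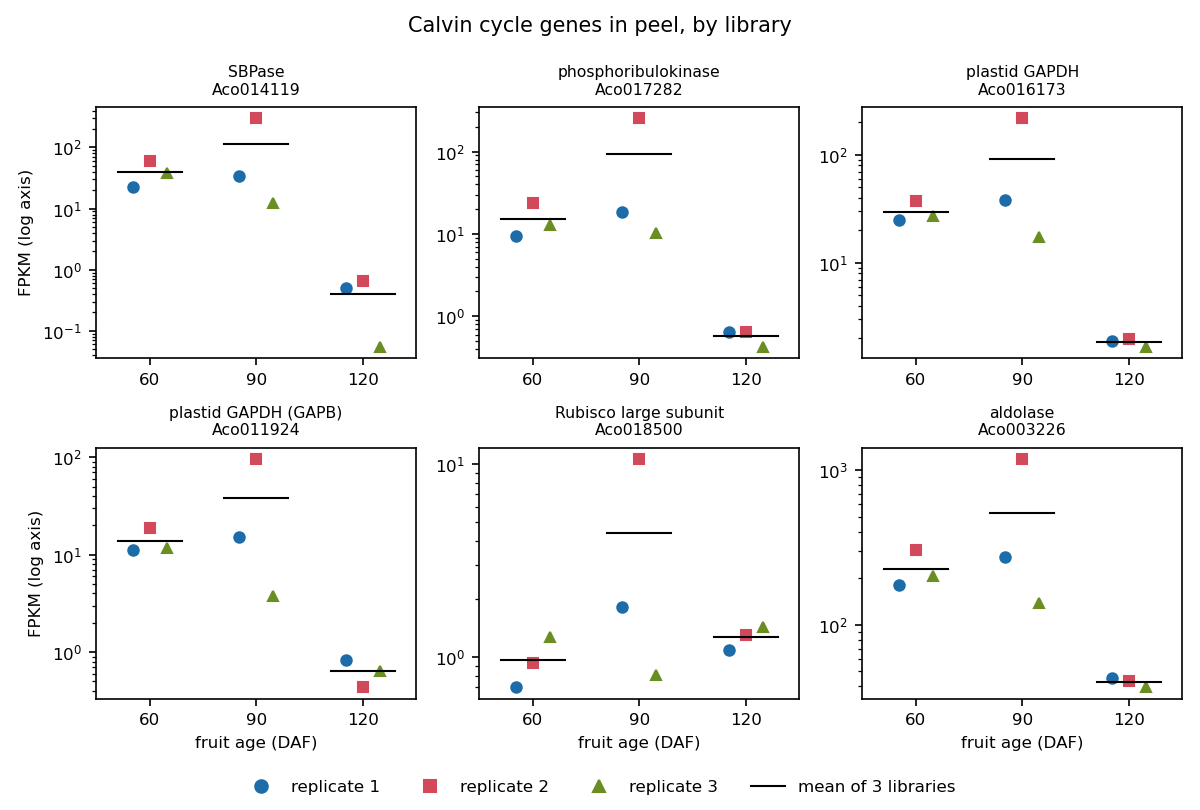
FPKM on log axes, with a different range in each panel, of 5 Calvin-only genes and the aldolase Aco003226 in each library, by fruit age in DAF; each point is 1 library and each line the mean of 3 libraries. SBPase, phosphoribulokinase, both plastid GAPDH genes and the aldolase have their 3 lowest libraries at 120 DAF, and all 6 genes have their highest in the second 90 DAF library.

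The genes of steps shared with glycolysis or the pentose phosphate pathway moved both ways. From 90 to 120 DAF, 5 of the 32 tested rose and 2 fell, against 8.19% and 9.17% of all genes, and their median log2 fold change was 0.08. From 60 to 120 DAF, 2 rose and 1 fell, against 4.25% and 5.22% of all genes, with a median of 0.01. From 60 to 90 DAF, 1 fell, against 0.465% of all genes, and 0 rose with edgeR, DESeq2 or limma. DESeq2 called 6 lower, where it called 730 of all 16791 genes lower. Limma called 2 lower with a pseudocount of 1 and 1 with 0.1, where it called 150 and 109 of all genes lower. Of the 32, 6 had an unadjusted p under 0.05 from 60 to 90 DAF in either direction.

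The members that fell include an abundant aldolase. Aldolase joins triose phosphates in the Calvin cycle and splits fructose bisphosphate in glycolysis. Aco003226 (contig 18, 1209531 to 1212164) measured 180, 307 and 206 FPKM at 60 DAF, 275, 1183 and 137 FPKM at 90 DAF and 45.1, 43.2 and 39.4 FPKM at 120 DAF. The 120 DAF libraries lay below all younger ones, and the highest value again stood in the second 90 DAF library. The log2 fold change from 90 to 120 DAF was -3.32 ± 0.71 (edgeR adjusted p = 0.0181) and -1.97 without that library (edgeR adjusted p = 0.0102). The first call ended without any single 120 DAF library (adjusted p from 0.051 to 0.0666) or with only the compared ages fitted (0.0575).

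Phosphoglycerate kinase passes phosphate between ATP and phosphoglycerate in both pathways. The model Aco008363 (contig 20, 9806680 to 9809099), which carries its ortholog but is annotated as a non-translating coding sequence, measured 4.07, 3.86 and 5.32 FPKM at 60 DAF, 3.29, 10.9 and 2.75 FPKM at 90 DAF and 0.362, 1.07 and 0.636 FPKM at 120 DAF. The 120 DAF libraries were the 3 lowest. Of these only the second reached 1 FPKM, so the model entered the test through the younger libraries. It fell by 2.71 ± 0.60 on the log2 scale from 90 DAF (edgeR adjusted p = 0.0203) and by 2.39 ± 0.59 from 60 DAF (edgeR adjusted p = 0.0431). The first call ended without 120 DAF replicate 1 or 3 (0.0669 to 0.0718) or with only the compared ages fitted (0.0653), and the second without any single 60 or 120 DAF library (0.054 to 0.135) or with no filter (0.0532).

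Further genes, chosen after their values were seen, also peaked in the second 90 DAF library without passing the test. That library was the highest for 12 of the 32 tested shared genes, or 37.5%, against 24.5% of all genes. Others were low there, and Aco022874, a ribulose-phosphate 3-epimerase gene, stood at 0.30 times the mean of the other 90 DAF libraries. The ribose 5-phosphate isomerase Aco008680 measured 7.96, 51.5 and 2.18 FPKM at 90 DAF and 2.27, 1.07 and 0.870 FPKM at 120 DAF (log2 fold change -3.52, edgeR adjusted p = 0.0524). Its ages overlapped by 1 library. The fructose-1,6-bisphosphatase Aco016862, whose annotation has a plastid term, measured 3.05, 27.9 and 2.15 FPKM and then 0.412, 0.638 and 2.91 FPKM (log2 fold change -2.70, edgeR adjusted p = 0.129). The phosphoglycerate kinase Aco002111 measured 85.8, 299 and 59.6 FPKM and then 46.3, 31.3 and 45.1 FPKM (log2 fold change -1.53, edgeR adjusted p = 0.0845). Aco002111 overlaps the model of another phosphoglycerate kinase member, Aco002110, on the same strand, so its counts are uncertain. Without the second 90 DAF library the log2 fold changes from 90 to 120 DAF were -1.51 for Aco008680, -0.66 for Aco016862 and -0.54 for Aco002111.

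The shared genes that rose after 90 DAF had a dip at 90 DAF or a late rise. NAD+ GAPDH oxidises triose phosphate in glycolysis. Its leading gene Aco018596 (contig 2, 10390494 to 10396279) measured 1276, 1355 and 1272 FPKM at 60 DAF, 684, 493 and 376 FPKM at 90 DAF and 906, 892 and 812.45 FPKM at 120 DAF. The 3 ages did not overlap, with 90 DAF lowest and 60 DAF highest. It was the only member called from 60 to 90 DAF, at a log2 fold change of -1.36 ± 0.19 (edgeR adjusted p = 0.0367), and it then rose by 1.06 ± 0.19 (edgeR adjusted p = 0.0107). The fall ended as a call without any single 60 DAF library, 90 DAF replicate 1 or 3 or 120 DAF replicate 1 or 3 (0.0578 to 0.124). With total count scaling, which sets no correction for composition, the rise had an adjusted p of 0.0528 and the fall one of 0.0516, and with only the compared ages fitted the fall had one of 0.0765.

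A second NAD+ GAPDH gene, Aco004676 (contig 6, 4970438 to 4976046), measured 132, 119 and 91.3 FPKM at 60 DAF, 56.8, 51.5 and 31.9 FPKM at 90 DAF and 245, 175 and 265 FPKM at 120 DAF. The ages did not overlap, and 120 DAF was highest. It rose by 2.61 ± 0.27 on the log2 scale from 90 to 120 DAF (edgeR adjusted p = 0.00242), a 6.10-fold change, and by 1.28 ± 0.26 from 60 to 120 DAF (edgeR adjusted p = 0.0235). The second call ended without 60 DAF replicate 2 or 3 or 120 DAF replicate 1 or 3 (0.0722 to 0.0873). The first passed in every alternative run, with adjusted p-values up to 0.0157.

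Triosephosphate isomerase interconverts the triose phosphates. Its leading gene Aco024987 (contig 15, 6567684 to 6588795) measured 625, 593 and 627 FPKM, then 407, 464 and 255 FPKM, then 716, 675 and 688 FPKM at the 3 ages. The 90 DAF libraries were the 3 lowest. It rose by 1.20 ± 0.19 on the log2 scale from 90 to 120 DAF (edgeR adjusted p = 0.0075) and was called in every alternative run. Its model overlaps that of another gene on the opposite strand, and the strand setting of the counting is not given in the sources used here.

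The phosphoglycerate kinase Aco006606 (contig 15, 1026805 to 1029998) measured 768, 767 and 703 FPKM at 60 DAF, 512, 377 and 403 FPKM at 90 DAF and 581, 625 and 566 FPKM at 120 DAF. The ages did not overlap. It rose by 0.75 ± 0.16 on the log2 scale from 90 to 120 DAF (edgeR adjusted p = 0.0184). The call ended without 120 DAF replicate 1 or 3 (0.0544 to 0.0615), with total count scaling (0.103), with only the compared ages fitted (0.0717) and with limma (0.0949 and 0.0878).

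Fructose-1,6-bisphosphatase drives sugar synthesis, in the plastid or in the cytosol. Its leading gene Aco018239 (contig 2, 3665293 to 3668585) measured 101, 69.0 and 77.4 FPKM at 60 DAF, 116, 76.1 and 62.8 FPKM at 90 DAF and 176, 128 and 183 FPKM at 120 DAF. The 120 DAF libraries were the 3 highest. The log2 fold change was 1.25 ± 0.26 from 90 DAF (edgeR adjusted p = 0.0173) and 1.26 ± 0.26 from 60 DAF (edgeR adjusted p = 0.0262). Leaving out 120 DAF replicate 1 or 3 ended both calls, as did 60 DAF replicate 2 or 3 for the latter (0.0556 to 0.0601 and 0.0798 to 0.104). With total count scaling the latter had an adjusted p of 0.0523.

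**Figure D3:**
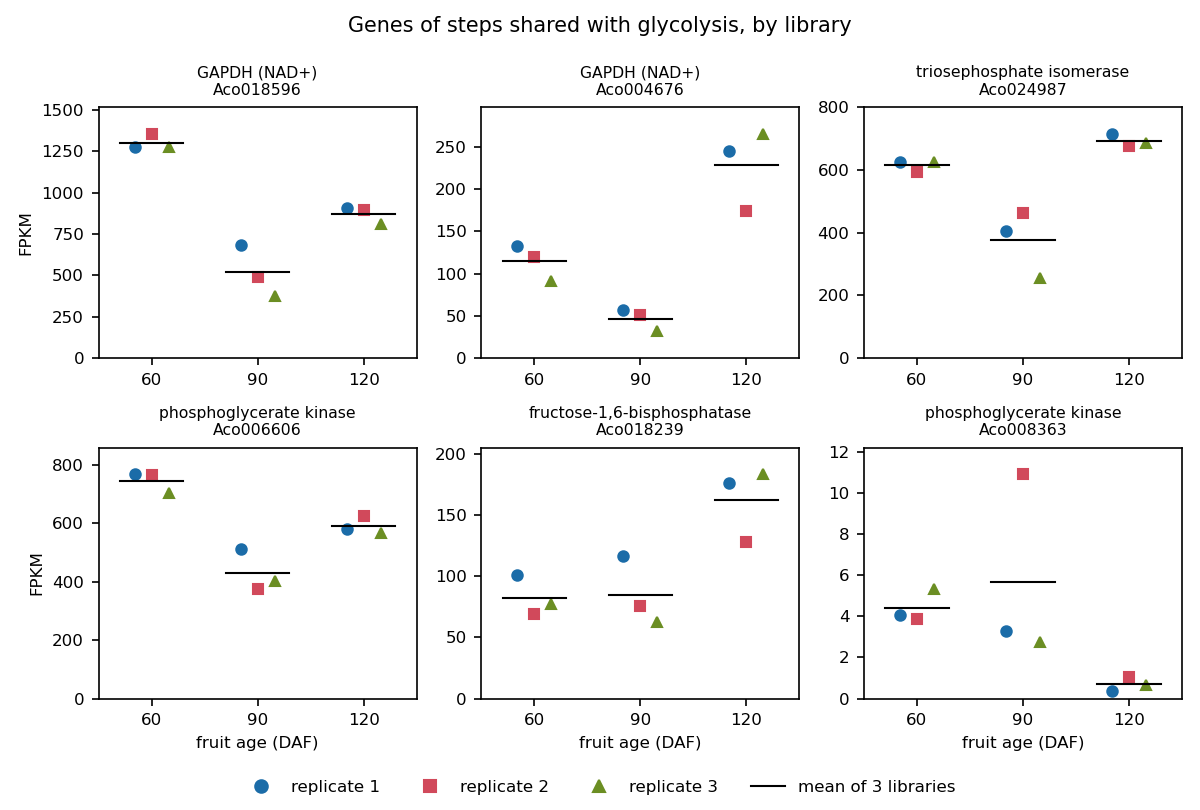
FPKM of 6 genes of steps shared with glycolysis in each library, by fruit age in DAF, with a different linear scale in each panel; each point is 1 library and each line the mean of 3 libraries. Both NAD+ GAPDH genes, triosephosphate isomerase and the phosphoglycerate kinase Aco006606 are lowest at 90 DAF, the fructose-1,6-bisphosphatase is highest at 120 DAF and the phosphoglycerate kinase Aco008363 is lowest at 120 DAF.

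The leading genes of the other shared steps did not pass the test in any comparison. The transketolase Aco022738, which moves carbon units between sugars, averaged 56.4 ± 18.6, 97.4 ± 33.1 and 50.2 ± 12.8 FPKM (SD, n = 3) at 60, 90 and 120 DAF. It lies over another transketolase model, Aco022739, on the opposite strand. A further transketolase, Aco023960, was named after its values were seen. It measured 56.8, 77.7 and 55.2 FPKM, then 17.9, 74.5 and 12.0 FPKM, then 20.0, 22.3 and 24.8 FPKM at the 3 ages, and was not called. Without the second 90 DAF library it was called lower from 60 to 90 DAF (log2 fold change -2.08, edgeR adjusted p = 0.0285) and from 60 to 120 DAF (-1.21, 0.00998). Its model overlaps others on the same strand, so its counts are uncertain. The ribose 5-phosphate isomerase Aco005578 averaged 289 ± 31.0, 316 ± 28.7 and 314 ± 25.2 FPKM (SD, n = 3), a level that stayed within the spread of its libraries. The ribulose-phosphate 3-epimerase Aco004162 averaged 76.3 ± 20.4, 74.9 ± 51.9 and 65.8 ± 12.5 FPKM (SD, n = 3). The leading aldolase Aco024201 averaged 747 ± 67.9, 474 ± 53.8 and 488 ± 16.6 FPKM (SD, n = 3). Its neighbour on contig 2, the aldolase Aco025753, had nearly the same averages of 727, 462 and 471 FPKM, so reads may be split between near-identical copies and both levels are uncertain.

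The malate and C4/CAM-type genes moved both ways. In each library 21 of the 25 reached 1 FPKM, and the alanine aminotransferase gene Aco012154 had no count in any. From 90 to 120 DAF, 3 of the 21 tested rose and 3 fell, against 8.19% and 9.17% of all genes, with a median log2 fold change of 0.21. From 60 to 120 DAF, 3 rose, against 4.25% of all genes, and 0 fell with edgeR, while DESeq2 and each limma fit called 1 lower. From 60 to 90 DAF, edgeR called 0, against 0.786% of all genes, and limma called 0. DESeq2 called 3 higher and 2 lower, where it called 707 of all 16791 genes higher and 730 lower. Unadjusted p-values under 0.05 were found for 6, 10 and 5 of the 21 genes from 60 to 90, 90 to 120 and 60 to 120 DAF. The matching share of all genes was not counted, and from 90 to 120 DAF 17.4% of them passed even the adjusted threshold.

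**Figure D4:**
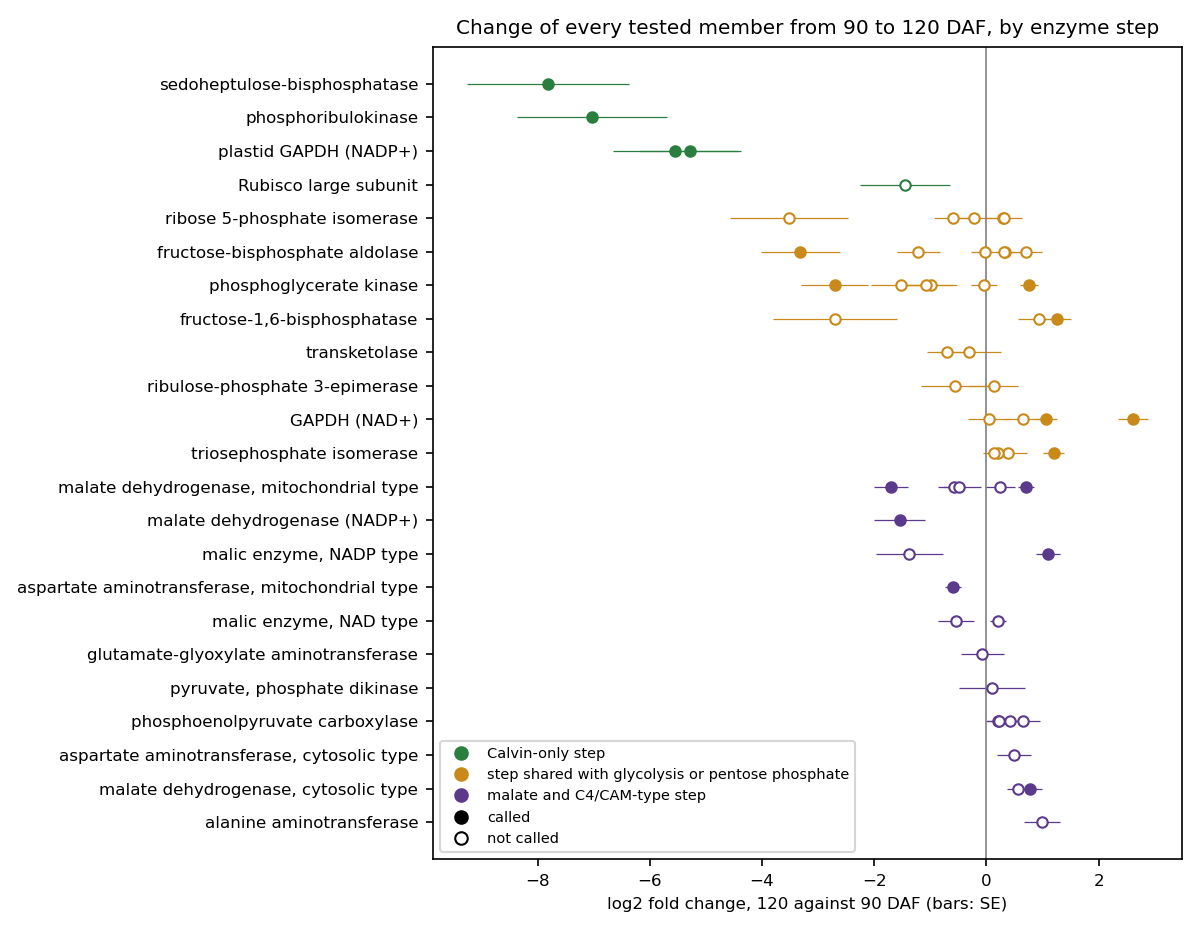
Log2 fold change from 90 to 120 DAF (horizontal axis, bars are SE) of each of the 58 tested members, 1 row per enzyme step; filled points passed the test and open points did not. SBPase, phosphoribulokinase and plastid GAPDH lie between -7.81 and -5.28, while malate and C4/CAM-type genes lie on both sides of 0.

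Carboxylation is the entry step of C4 acid synthesis. Among the members, the leading phosphoenolpyruvate carboxylase gene was Aco018093 (contig 12, 8354385 to 8363768). It measured 110, 181 and 88.1 FPKM at 60 DAF, 132, 81.4 and 122 FPKM at 90 DAF and 127, 168 and 139 FPKM at 120 DAF, and its ages overlapped. The gene Aco010025, left out by rule, was not ranked here, so the members do not give the level or change of the whole step. No member of this step passed the edgeR test, with 1 of the 4 tested genes under an unadjusted p of 0.05 in each comparison. DESeq2 called 1 lower from 60 to 90 DAF and 1 lower from 60 to 120 DAF, and each limma fit 1 lower from 60 to 120 DAF. The gene Aco010024, named after its values were seen, measured 38.3, 48.2 and 47.7 FPKM at 60 DAF, 23.2, 26.04 and 23.5 FPKM at 90 DAF and 15.0, 29.2 and 25.2 FPKM at 120 DAF. All its 60 DAF libraries lay above the others, at edgeR adjusted p-values of 0.122 against 90 DAF and 0.105 against 120 DAF.

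Malate dehydrogenase interconverts oxaloacetate and malate. The cytosolic-type gene Aco013935 (contig 4, 1183428 to 1188049) held 76.0% to 90.0% of the summed FPKM of its ortholog in each library. It measured 1262, 1308 and 1334 FPKM at 60 DAF, 631, 700 and 373 FPKM at 90 DAF and 788, 925 and 646 FPKM at 120 DAF. The 60 DAF libraries were the 3 highest, and the 90 and 120 DAF libraries overlapped. From 60 to 90 DAF the log2 fold change of -1.23 missed the threshold (edgeR adjusted p = 0.0529). Then it rose by 0.78 ± 0.22 from 90 to 120 DAF (edgeR adjusted p = 0.0433), a call that ended without any single library except the second 90 DAF one (0.0639 to 0.116) and with total count scaling (0.235) or limma (0.214 and 0.206). It also ended with no filter (0.0567), with a filter of 5 FPKM (0.058) and with only the compared ages fitted (0.121).

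Of the mitochondrial-type genes, 1 rose and 1 fell from 90 to 120 DAF. Aco008626 (contig 10, 1173552 to 1178694) measured 84.9, 94.7 and 98.3 FPKM at 60 DAF, 91.3, 98.8 and 70.7 FPKM at 90 DAF and 128, 111 and 107 FPKM at 120 DAF. Its 120 DAF libraries were the 3 highest. It rose by 0.71 ± 0.14 on the log2 scale from 90 DAF (edgeR adjusted p = 0.0145) and by 0.60 ± 0.14 from 60 DAF (edgeR adjusted p = 0.0375). The former call ended without the first 120 DAF library (0.0579), the latter without any single 60 or 120 DAF library or the first 90 DAF one (0.0518 to 0.129), and both with total count scaling (0.127 and 0.256). With limma the former had adjusted p-values of 0.116 and 0.117 and the latter 0.253 and 0.25. The former also ended with only the compared ages fitted (0.0599) and the latter with no filter (0.0505).

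Aco004996 (contig 8, 1308487 to 1310963), named after its values were seen, measured 40.8, 45.5 and 36.2 FPKM at 60 DAF, 124, 194 and 69.7 FPKM at 90 DAF and 33.8, 35.8 and 26.7 FPKM at 120 DAF. All 90 DAF libraries lay above the others. It fell by 1.70 ± 0.30 on the log2 scale from 90 to 120 DAF (edgeR adjusted p = 0.0106), and was called in every alternative run. The leading gene of this type, Aco006122, averaged 152 ± 18.6, 123 ± 35.2 and 120 ± 22.1 FPKM (SD, n = 3) and passed in no comparison.

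The ortholog of NADP+ malate dehydrogenase, an enzyme whose plastid form light activates, is carried by Aco010232 (contig 25, 10372310 to 10375538). The annotation of this gene has no plastid term or name. It measured 48.2, 57.5 and 58.1 FPKM at 60 DAF, 81.3, 155 and 30.4 FPKM at 90 DAF and 27.8, 23.7 and 21.0 FPKM at 120 DAF. The 120 DAF libraries were the 3 lowest. It fell by 1.55 ± 0.45 on the log2 scale from 90 to 120 DAF (edgeR adjusted p = 0.0494). Without the second 90 DAF library the log2 fold change was -0.89 (edgeR adjusted p = 0.108), and the call ended without any single library except the third 90 DAF one (0.0727 to 0.133). It also ended with no filter (0.0588), with only the compared ages fitted (0.118) and with limma (0.0513 and 0.0508).

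Malic enzyme releases carbon dioxide from malate. The leading NADP-type gene, Aco005631 (contig 12, 11824067 to 11828370), measured 513, 417 and 373 FPKM at 60 DAF, 386, 355 and 336 FPKM at 90 DAF and 727, 536 and 613 FPKM at 120 DAF. The 120 DAF libraries were the 3 highest. It rose by 1.10 ± 0.21 on the log2 scale from 90 DAF, a 2.14-fold change (edgeR adjusted p = 0.0121), and was called in every alternative run. From 60 DAF the log2 fold change was 0.81 ± 0.20 (edgeR adjusted p = 0.0453), a call that ended without any single library except the second 90 DAF and the second 120 DAF ones (0.0505 to 0.162), with total count scaling (0.12) and with limma (0.105 and 0.0999). It also ended with no filter (0.0536), with a filter of 5 FPKM (0.0526) and with only the compared ages fitted (0.0538).

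A second NADP-type gene, Aco009967, named after its values were seen, measured 26.6, 21.8 and 10.4 FPKM at 60 DAF, 75.2, 51.9 and 181 FPKM at 90 DAF and 21.6, 28.02 and 50.7 FPKM at 120 DAF. All its 90 DAF libraries lay above the others, but by unequal amounts, and no comparison passed. Its presence lowered the share of Aco005631 in the summed FPKM of the ortholog to 64.9% in the third 90 DAF library, where the highest share in a library was 97.3%. The leading NAD-type gene, Aco007622, averaged 34.4 ± 7.28, 47.6 ± 16.8 and 27.2 ± 4.25 FPKM (SD, n = 3) and was not called.

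No member carried the ortholog of phosphoenolpyruvate carboxykinase, the other decarboxylating enzyme. A gene outside the members, Aco012946, has a Gene Ontology term for it and was chosen after its values were seen. It averaged 53.2 ± 6.41, 49.0 ± 10.4 and 53.3 ± 6.15 FPKM (SD, n = 3) and was not called in any comparison.

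Pyruvate, phosphate dikinase rebuilds phosphoenolpyruvate from pyruvate. Its gene Aco024818 (contig 5, 9872622 to 9887784) measured 97.8, 76.7 and 138 FPKM at 60 DAF, 25.3, 102 and 21.2 FPKM at 90 DAF and 33.4, 31.2 and 62.3 FPKM at 120 DAF. The 60 DAF libraries lay above those of 120 DAF, and the second 90 DAF library lay among those of 60 DAF. Without that library the log2 fold change from 60 to 90 DAF was -2.15 ± 0.41 (edgeR adjusted p = 0.0553). With it, the log2 fold change was -1.10 from 60 to 90 DAF (edgeR adjusted p = 0.399) and -1.004 from 60 to 120 DAF (edgeR adjusted p = 0.323).

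The aminotransferases carry carbon between amino acids and the C3 or C4 acids. Alanine aminotransferase Aco003997 (contig 16, 2145321 to 2150477) measured 118, 107 and 81.3 FPKM at 60 DAF, 123, 83.2 and 161 FPKM at 90 DAF and 203, 160 and 239 FPKM at 120 DAF. Its 120 DAF libraries lay above those of 60 DAF and overlapped those of 90 DAF. It rose by 1.26 ± 0.32 on the log2 scale from 60 to 120 DAF (edgeR adjusted p = 0.0458). The call ended without any single 60 DAF library, the first 90 DAF library or 120 DAF replicate 1 or 3 (0.0691 to 0.153), and also with total count scaling (0.0574) and with no filter (0.053).

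The mitochondrial-type aspartate aminotransferase Aco004314 (contig 6, 2104550 to 2109134) measured 62.1, 68.1 and 64.8 FPKM at 60 DAF, 108, 98.6 and 70.6 FPKM at 90 DAF and 44.1, 56.7 and 47.8 FPKM at 120 DAF. The ages did not overlap, with 90 DAF highest and 120 DAF lowest. It fell by 0.60 ± 0.14 on the log2 scale from 90 to 120 DAF (edgeR adjusted p = 0.0267). The call ended without the second 60 DAF, 90 DAF replicate 1 or 2 or 120 DAF replicate 1 or 3 (0.0522 to 0.102), and with only the compared ages fitted (0.0907). The cytosolic-type gene Aco006741 averaged 167 ± 13.9, 174 ± 51.9 and 202 ± 49.0 FPKM, and the glutamate-glyoxylate aminotransferase Aco010546 averaged 37.5 ± 2.20, 52.8 ± 33.5 and 40.1 ± 7.82 FPKM (SD, n = 3), and neither was called.

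**Figure D5:**
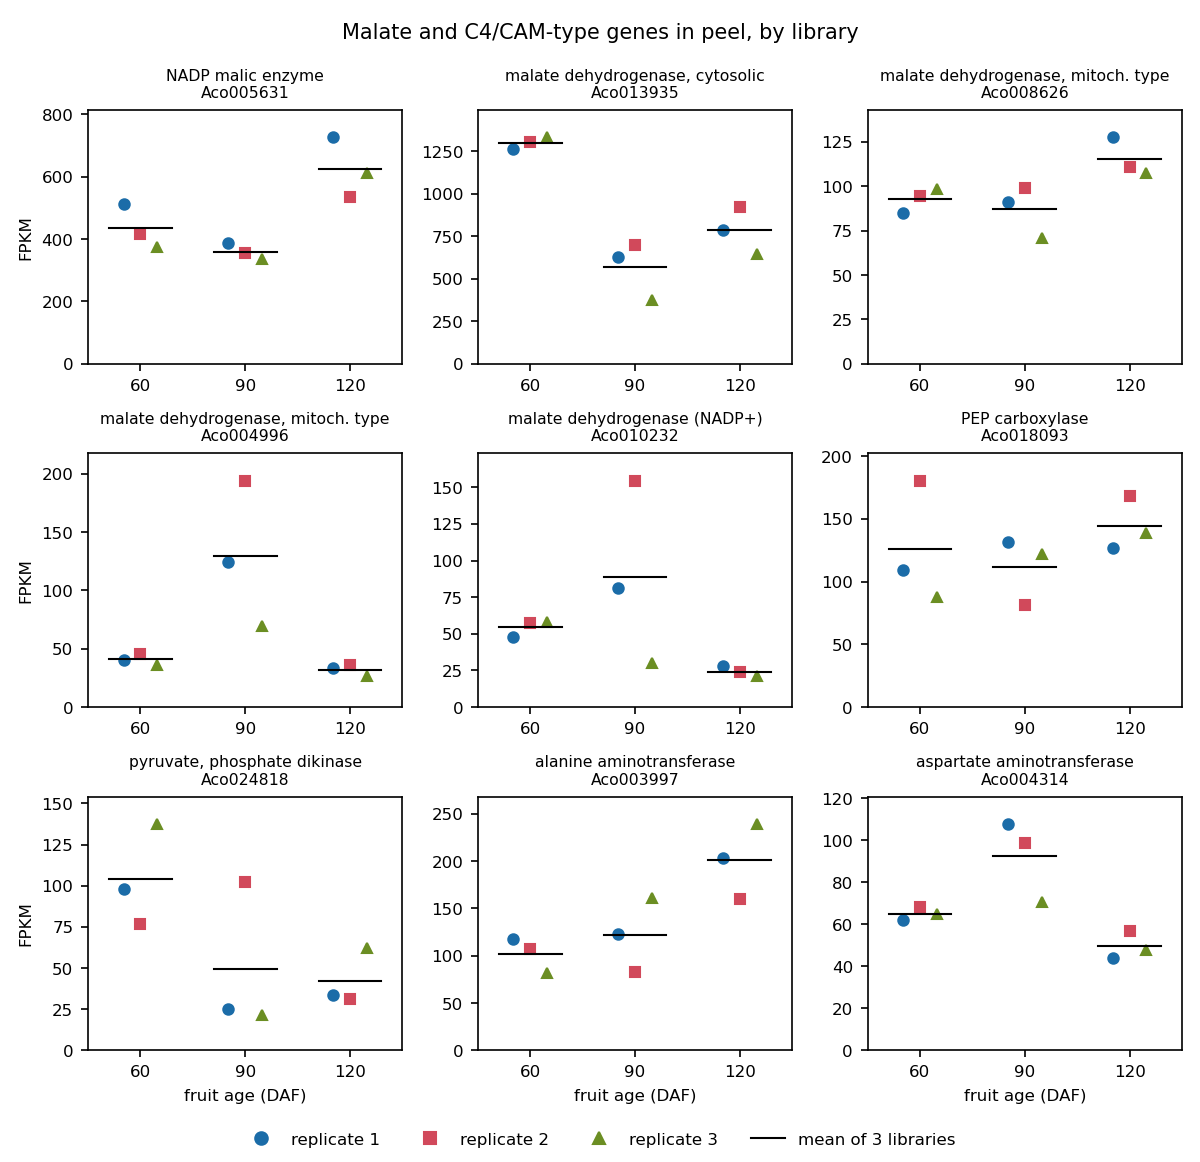
FPKM of 9 malate and C4/CAM-type genes in each library, by fruit age in DAF, with a different linear scale in each panel; each point is 1 library and each line the mean of 3 libraries. The NADP malic enzyme Aco005631 and the malate dehydrogenase Aco008626 are highest at 120 DAF, the NADP+ malate dehydrogenase is lowest at 120 DAF and the malate dehydrogenase Aco004996 is highest at 90 DAF.

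Photorespiration recovers the carbon that Rubisco diverts when it reacts with oxygen. Of its 23 genes, 22 were tested. In all, 3 rose and 5 fell from 90 to 120 DAF, against 8.19% and 9.17% of all genes. In the other comparisons, 2 rose from 60 to 120 DAF, against 4.25%, and 1 fell from 60 to 90 DAF, against 0.465%. Its gene of highest mean level, the serine-glyoxylate aminotransferase Aco003139, measured 72.0, 57.7 and 68.9 FPKM at 60 DAF, 87.7, 200.3 and 31.0 FPKM at 90 DAF and 250.1, 127 and 201 FPKM at 120 DAF. Its 120 DAF libraries lay above those of 60 DAF and overlapped those of 90 DAF, and it was not called.

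The next genes were chosen after their values were seen. Glycolate oxidase Aco007436 measured 23.7, 22.1 and 27.6 FPKM at 60 DAF, 15.8, 11.3 and 9.17 FPKM at 90 DAF and 54.1, 56.7 and 50.0 FPKM at 120 DAF. The ages did not overlap, and it rose by 2.45 ± 0.18 on the log2 scale from 90 to 120 DAF (edgeR adjusted p = 0.00153). The H protein of glycine decarboxylase, Aco017477, measured 2.84, 6.12 and 2.63 FPKM, then 9.86, 77.7 and 2.19 FPKM, then 0.508, 0.454 and 0 FPKM. Its 120 DAF libraries were the 3 lowest and its highest was the second 90 DAF library. It was below 1 FPKM in every 120 DAF library, so it entered the test through the younger ones, and it fell by 6.15 ± 1.53 on the log2 scale from 90 to 120 DAF (edgeR adjusted p = 0.0294). That call ended without the second 90 DAF library or any single 120 DAF library (adjusted p up to 0.0869).

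Carbonic anhydrase supplies bicarbonate to phosphoenolpyruvate carboxylase. Of 6 genes 5 were tested, and 1 rose from 90 to 120 DAF, against 8.19% of all genes. It was Aco005402, which rose by 0.91 ± 0.26 on the log2 scale (edgeR adjusted p = 0.0487). The call ended without any single library except the second 120 DAF one (adjusted p up to 0.143). The gene of highest mean level, Aco006181, measured 156, 228 and 192 FPKM at 60 DAF, 50.7, 148 and 24.3 FPKM at 90 DAF and 85.5, 63.6 and 78.6 FPKM at 120 DAF. Its 60 DAF libraries lay above all others, but no comparison passed, with an edgeR adjusted p of 0.24 from 60 to 90 DAF. Another, Aco001338, was named after its values were seen and was not called. It measured 2.15, 2.83 and 0.319 FPKM, then 72.1, 0.863 and 67.1 FPKM, then 32.8, 77.8 and 112 FPKM at the 3 ages. All its 120 DAF libraries lay above those of 60 DAF, and the second 90 DAF library lay among those of 60 DAF. The light-harvesting gene of highest mean level, Aco001089, measured 13.7, 23.8 and 17.9 FPKM, then 89.1, 545 and 37.1 FPKM, then 2.96, 1.69 and 4.04 FPKM at the 3 ages. Those ages did not overlap, and it fell by 5.92 ± 1.03 on the log2 scale from 90 to 120 DAF (edgeR adjusted p = 0.00963).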

How the data were processed

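Per the labels' protocols, poly(A) RNA of peel was made into paired-end Illumina libraries. The authors deposited 1 table with read counts and FPKM per gene for 9 libraries, per the file headers. The tools named are Bowtie 0.12.2, HISAT2 2.0 and StringTie 1.3.0, per the submitters' processing notes. What each did, which genome build was read and whether counting used strand is not given in the sources used here. FPKM of 0.0001 stands for a count of 0 and was set to 0.

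Counts were tested with edgeR 4.0.16 (R 4.3.3; quasi-likelihood, TMM scaling) in 1 fit of all 9 libraries with 6 residual degrees of freedom, over 16791 genes that reached 1 FPKM in 3 or more libraries. The procedure was tested on simulated data. SE is the log2 fold change divided by the square root of F. Fold changes of the main fit carry the TMM scaling, and FPKM values and the limma fits on them do not. Alternatives used DESeq2 1.42.0 and limma 3.58.1 on log2(FPKM + 1) or log2(FPKM + 0.1), among others. Library totals were 35038248 to 52937826 counts, so low genes carry more counting error. Of the members, 12 overlap another gene model.

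Members and lists were chosen with earlier results of these data known. Named genes were the gene of highest mean FPKM per ortholog, the 5 called members of largest change each way per comparison, and the leading photorespiration, carbonic anhydrase and light-harvesting genes. No identifier matched the RefSeq table, so no sequence is printed. Python 3.11.15 with pandas 2.3.3 made the summaries and matplotlib 3.10.9 the figures.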

Additional observations from a re-analysis of the deposited data

How the results depend on the processing

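The 28 calls of members and of the light-harvesting gene Aco001089 kept their direction in every alternative run, and 6 were called in each. The calls lost were 21 without 120 DAF replicate 1, 18 without 120 DAF replicate 3 and between 2 and 13 under the other alternatives that lost any. Among 68 uncalled results, 20 were called in at least 1 alternative. Depth limits the genes near 1 FPKM, such as the Rubisco genes. The causes of the differences below were not tested.

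Total count scaling moved the median log2 fold change of all genes to -0.32 from 90 to 120 DAF and -0.29 from 60 to 120 DAF. Calls over all genes then were 649 higher and 2565 lower, against 1375 and 1540, from 90 to 120 DAF, and 381 and 1506, against 714 and 876, from 60 to 120 DAF. Among Calvin cycle members it left 3 higher from 90 to 120 DAF, 1 higher and 8 lower from 60 to 120 DAF and 0 lower from 60 to 90 DAF. Among malate and C4/CAM-type members it left 1 higher from 90 to 120 DAF, and 0 higher and 1 lower from 60 to 120 DAF.

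DESeq2 called 6 Calvin cycle members lower from 60 to 90 DAF and 4 higher from 60 to 120 DAF. It called 3 malate and C4/CAM-type members higher and 2 lower from 60 to 90 DAF, 5 higher from 90 to 120 DAF and 1 lower from 60 to 120 DAF. Of all 16791 genes, DESeq2 called 707 higher and 730 lower from 60 to 90 DAF. The numbers were 2123 and 2536 from 90 to 120 DAF, and 1571 and 1822 from 60 to 120 DAF. With only the 2 compared ages fitted, Calvin cycle members called lower were 0 from 60 to 90 DAF, 3 from 90 to 120 DAF and 7 from 60 to 120 DAF, while malate and C4/CAM-type members were 1 higher and 1 lower from 90 to 120 DAF and 1 lower from 60 to 120 DAF. Of all genes, that fit called 38, 688 and 1295 lower in these comparisons, and 527 higher from 90 to 120 DAF. Limma called 7 Calvin cycle members lower from 60 to 120 DAF with a pseudocount of 1 and 8 with 0.1, and 2 lower from 60 to 90 DAF with a pseudocount of 1. With either pseudocount it called 1 malate and C4/CAM-type member higher from 90 to 120 DAF and 1 higher and 1 lower from 60 to 120 DAF. Over all genes it called 713 and 714 higher from 90 to 120 DAF and 465 and 448 higher from 60 to 120 DAF. With no filter, 2 Calvin cycle members were lower and 0 malate and C4/CAM-type members higher from 60 to 120 DAF. Of the 22060 genes then tested, 707 were lower and 555 higher.

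The replicate block left 0 Calvin cycle members lower from 60 to 90 DAF, 1 malate and C4/CAM-type member lower from 90 to 120 DAF and 0 higher from 60 to 120 DAF. Of all genes it left 8 lower from 60 to 90 DAF and 1084 lower from 90 to 120 DAF. From 60 to 120 DAF it left 416 higher. It ended 8 of the 28 calls. The numbers were not taken to pair the libraries. Same-numbered libraries had correlations of their deviations from -0.32 to 0.36, with 2 of 9 over 0.1, and differently numbered ones from -0.33 to 0.29, with 7 of 18.

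Leaving out 1 library at a time gave 0 to 2 Calvin cycle members lower from 60 to 90 DAF, 3 to 6 higher and 1 to 10 lower from 90 to 120 DAF, and 0 to 3 higher and 0 to 8 lower from 60 to 120 DAF. Over all genes, 0 to 147 were lower from 60 to 90 DAF. From 90 to 120 DAF, 472 to 1308 were higher and 622 to 1856 lower. From 60 to 120 DAF, 135 to 1188 were higher and 257 to 1264 lower. The 1 lower from 90 to 120 DAF was without 120 DAF replicate 1, and the 0 lower from 60 to 120 DAF were without any single 60 or 120 DAF library. Of all genes, 622 were lower in the former run and 257 to 742 in the latter. Malate and C4/CAM-type members were 0 to 1 higher and 0 to 1 lower from 60 to 90 DAF, 1 to 3 higher and 1 to 3 lower from 90 to 120 DAF, and 0 to 3 higher from 60 to 120 DAF. Of all genes, 0 to 129 were higher from 60 to 90 DAF.

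In 26 uncalled results the log2 fold change changed sign in 53 cases, 0 of them with an adjusted p under 0.05. With total count scaling it was -0.19 (90 to 120 DAF) and -0.21 (60 to 120 DAF) for Aco004162, and from 90 to 120 DAF -0.016 for Aco005578, -0.035 for Aco006122 and -0.24 for Aco024818, and -0.17 from 60 to 120 DAF for Aco022738. With limma it was -0.20 at both pseudocounts for Aco004162 and -0.15 at both for Aco022738, from 60 to 120 DAF, and from 90 to 120 DAF -0.0092 at both for Aco005578 and -0.00015 at a pseudocount of 1 for Aco006122. With the replicate block it was 0.026 for Aco010546 from 90 to 120 DAF.

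Without 1 library at a time, log2 fold changes from 60 to 90 DAF ranged from -0.20 to 1.05 for Aco003139, -0.18 to 1.60 for Aco003226, -0.067 to 0.51 for Aco003997, -0.76 to 0.20 for Aco004162, -0.24 to 0.30 for Aco006741, -0.54 to 0.61 for Aco008363, -0.0023 to 1.04 for Aco010232, -0.14 to 0.78 for Aco010546, -0.60 to 1.94 for Aco011924, -0.82 to 1.999 for Aco014119, -0.12 to 2.04 for Aco016173, -0.10 to 3.11 for Aco017282, -0.38 to 0.16 for Aco018093 and -0.22 to 0.21 for Aco018239. From 90 to 120 DAF they ranged from -0.15 to 0.83 for Aco004162, -0.040 to 1.33 for Aco006181, -0.41 to 0.52 for Aco010546, -1.93 to 0.27 for Aco018500 and -0.33 to 1.15 for Aco024818. From 60 to 120 DAF they ranged from -0.086 to 0.34 for Aco004162, -0.16 to 0.025 for Aco004996, -0.16 to 0.066 for Aco006122, -0.19 to 0.15 for Aco007622 and -0.11 to 0.36 for Aco022738.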
